A study of Homo sapiens with 3 samples.

Results

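The 9 genes described here make, bind or respond to retinoic acid, the active form of vitamin A, and were taken by symbol from the 33538 gene rows of the deposited matrices. All 9 (RDH10, ALDH1A1, ALDH1A2, STRA6, CRABP1, CRABP2, RARA, RARB and RARG) were found. They were followed in 3 single-cell RNA libraries of stem-cell-derived alpha cells, labelled SC-A and numbered as replicates 1 to 3. HUES8, a line of human embryonic stem cells, was the source, and the cells were differentiated towards glucagon-secreting pancreatic alpha cells by a published protocol. All libraries belong to 1 group: no genotype, drug or time point separates them, and the labels do not say whether the replicates were separate differentiations. Every p-value below therefore speaks only of these libraries. With so few libraries per fit, it rests largely on a spread estimated over all genes tested, and little on that gene's own. HUES8 is 1 line, the product is a mixed culture of dispersed clusters, and the labels describe no sort. The comparisons are therefore between cell classes within libraries.

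Retinol enters some cells through the membrane receptor STRA6 and is oxidised to retinaldehyde, in embryos mainly by the retinol dehydrogenase RDH10. Retinaldehyde dehydrogenases of the ALDH1A family turn retinaldehyde into retinoic acid, the CRABP proteins carry retinoic acid inside the cell, and the nuclear receptors RARA, RARB and RARG, paired with RXR partners, bind it and switch genes on or off. CYP26 enzymes break it down. Retinoic acid from the mesoderm patterns the early pancreas, and retinoids are a usual additive in protocols that make pancreatic cells from stem cells.

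Promoter bases are shown first for 4 members, because ALDH1A1 sat opposite to CRABP1 and CRABP2 across the cell classes and because RARB is the member whose promoter is known as a retinoic acid target. Each line is read 5′ to 3′ on the gene's own strand from 250 to 33 bases before a RefSeq transcription start (GRCh38.p14), at chr9:72953086-72953303 (minus strand) for ALDH1A1, chr15:78340103-78340320 (plus) for CRABP1, chr1:156705817-156706034 (minus) for CRABP2 and chr3:25428013-25428230 (plus) for RARB. Capitals mark only the CCAAT box and the octamer ATGCAAAT in ALDH1A1, the GC box GGGCGG in CRABP1, a single retinoic acid response hexamer in CRABP2, and a pair of such hexamers 5 bases apart in RARB.
ALDH1A1: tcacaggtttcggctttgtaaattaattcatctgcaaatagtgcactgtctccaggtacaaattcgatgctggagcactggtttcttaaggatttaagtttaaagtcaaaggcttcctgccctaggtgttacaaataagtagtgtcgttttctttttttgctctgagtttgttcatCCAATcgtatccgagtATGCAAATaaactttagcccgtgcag
CRABP1: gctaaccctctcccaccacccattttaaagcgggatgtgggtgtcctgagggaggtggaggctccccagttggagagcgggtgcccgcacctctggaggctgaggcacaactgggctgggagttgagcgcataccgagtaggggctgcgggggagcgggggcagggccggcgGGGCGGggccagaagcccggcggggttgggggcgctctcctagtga
CRABP2: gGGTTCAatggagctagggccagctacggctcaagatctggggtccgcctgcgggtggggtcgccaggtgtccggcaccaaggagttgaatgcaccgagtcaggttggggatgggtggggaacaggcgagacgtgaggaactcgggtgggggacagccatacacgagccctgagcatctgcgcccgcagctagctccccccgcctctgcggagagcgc
RARB: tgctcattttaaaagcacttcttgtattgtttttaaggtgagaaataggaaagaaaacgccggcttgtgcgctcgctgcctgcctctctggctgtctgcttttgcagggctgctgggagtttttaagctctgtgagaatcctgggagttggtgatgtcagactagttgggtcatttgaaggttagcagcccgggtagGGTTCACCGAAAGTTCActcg
The printed stretches were 39.4% G or C in ALDH1A1, 69.3% in CRABP1, 66.5% in CRABP2 and 48.6% in RARB. A hexamer was the consensus AGGTCA or a variant: the CRABP2 letters GGTTCA, the second RARB block AGTTCA, or the form GGGTCA. Both strands were searched over all 250 bases before each start. Among 35116 RefSeq promoter windows, 33.8% held at least 1 hexamer, 42.6% the GC box, 32.01% CCAAT and 1.63% the octamer. The pair of hexamers spaced by 5 bases, NNNNN, stood in 26 windows (0.074%), among them 1 of the 4 windows of RARB. That RARB window was printed because it holds the pair. A match is a description of letters and not a measured binding site. RefSeq windows were held for 8 of the 9 members, all but RDH10. The printed ALDH1A1 and RARB windows lie inside the spans that GENCODE 29 gives these genes, which start with longer transcripts further upstream.

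Cells showing 1000 or more genes, with mitochondrial UMIs up to 20%, numbered 1160, 1027 and 1466 in replicates 1, 2 and 3 (3653 in all) and were kept from libraries of 30139788, 31122791 and 30980799 UMIs. A UMI marks 1 captured RNA molecule. The cells were classed by non-member genes, and the classes may overlap. GCG-rich cells had glucagon at 5% or more of UMIs (854, 860 and 914 cells), INS-positive cells had insulin at 1% or more (26, 59 and 7), and TPH1-positive cells had at least 3 UMIs of the serotonin-synthesis enzyme TPH1 (36, 20 and 107). FABP7-positive cells had at least 3 FABP7 UMIs (20, 4 and 53), and collagen-positive cells at least 5 UMIs of COL1A1, COL1A2 and COL3A1 summed (10, 11 and 107). A further 241, 124 and 298 cells met no rule.

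All 8 alpha-cell markers stood at 20 CPM or more in the GCG-rich cells of every library, where CPM is UMIs per 1000000 UMIs of the summed class, and all 12 mesenchyme markers did so in collagen-positive cells. TPH1-positive cells held 5 of 8 enterochromaffin markers at that level in each library, against 3 of 8 in GCG-rich cells, and also 8, 6 and 7 of 8 alpha-cell markers, at summed levels of 27849 to 47014 CPM. FABP7-positive cells held 7, 3 and 6 of 12 neural or glial markers, and SOX10, a defining glial gene, was at 0 in all 3 libraries, so that class is called only by its rule. Mesenchyme markers summed to 426, 1468 and 1714 CPM in the FABP7-positive cells against 7519 to 9246 CPM in collagen-positive cells, and 0, 2 and 12 cells met both rules. Cycling markers were also high in both of these classes (635 to 2648 CPM) against 19.2 to 45.3 CPM in GCG-rich cells; the part of cell cycle in the differences below was not tested. Duct or exocrine markers, led by KRT19 and SPP1, summed to 3113, 363 and 193 CPM in collagen-positive cells against 120 to 127 CPM in GCG-rich cells. The marker lists include the genes that set the classes: GCG (alpha), TPH1 (enterochromaffin), FABP7 (neural or glial) and COL1A1, COL1A2 and COL3A1 (mesenchyme). These rule genes count in the marker numbers and sums of their own class. Those values are therefore partly fixed by the rules and are no separate support for the classes. Pairs of libraries shared 1, 4 and 2 barcodes.

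ALDH1A1, on chromosome 9 (GRCh38, chr9:72900662-73080442, minus strand), was high in the 3 classes with endocrine markers and low in the other classes. In GCG-rich cells its level was 1139, 1084 and 699.9 CPM in replicates 1, 2 and 3, a mean of 974 CPM ± 239 (SD, n = 3). In TPH1-positive cells it was 2206, 1895 and 3490 CPM (2531 ± 845, SD, n = 3), and in INS-positive cells 1566, 1460 and 1170 CPM (1399 ± 205, SD, n = 3). Every TPH1-positive sum lay above every INS-positive sum, and every INS-positive sum above every GCG-rich sum, although the lowest INS-positive sum came from 7 cells, 1 of which held 57.5% of its ALDH1A1 UMIs. With GCG left out of the total, a scaling added after the data were seen, the INS-positive order did not hold. That lowest sum was then 1237 CPM, below 1344 and 1291 CPM in GCG-rich cells of replicates 1 and 2. Of the INS-positive cells, 23, 46 and 3 were also GCG-rich. FABP7-positive cells held 25.3, 148 and 84.7 CPM, and collagen-positive cells 5.92, 92.1 and 20.05 CPM. These lowest classes overlapped each other and stayed below every GCG-rich sum. The 18 UMIs behind both values of replicate 2 came from 1 cell that met the FABP7 and the collagen rule.

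Most endocrine cells carried ALDH1A1, rather than a few holding all of it. With every cell thinned to 5000 UMIs, 87.8% ± 6.81 (SD, n = 3) of GCG-rich and 91.5% ± 2.79 of TPH1-positive cells had at least 1 ALDH1A1 UMI, against 12.4% ± 12.5 of FABP7-positive and 5.05% ± 4.63 of collagen-positive cells; before thinning the shares were 95.2%, 95.2%, 22.3% and 10.7%. In replicate 1 the GCG-rich cell at the 10th percentile held 248 CPM, the median cell 860 CPM and the cell at the 90th percentile 2095 CPM. In replicate 3, the shallowest library with a median of 9991.5 UMIs per kept cell, those values were 0, 417 and 1433 CPM, and 93 of 914 cells had no ALDH1A1 UMI. Free RNA can give low shares in cells that lack a gene. Per 1000 GCG UMIs, the GCG-rich cells held 7.49, 6.75 and 5.38 ALDH1A1 UMIs and the collagen-positive cells 6.62, 120 and 19.5, so that the collagen-positive value of replicate 1, from 1 UMI, sat near the GCG-rich ratio and the others above it.

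**Figure D1:**
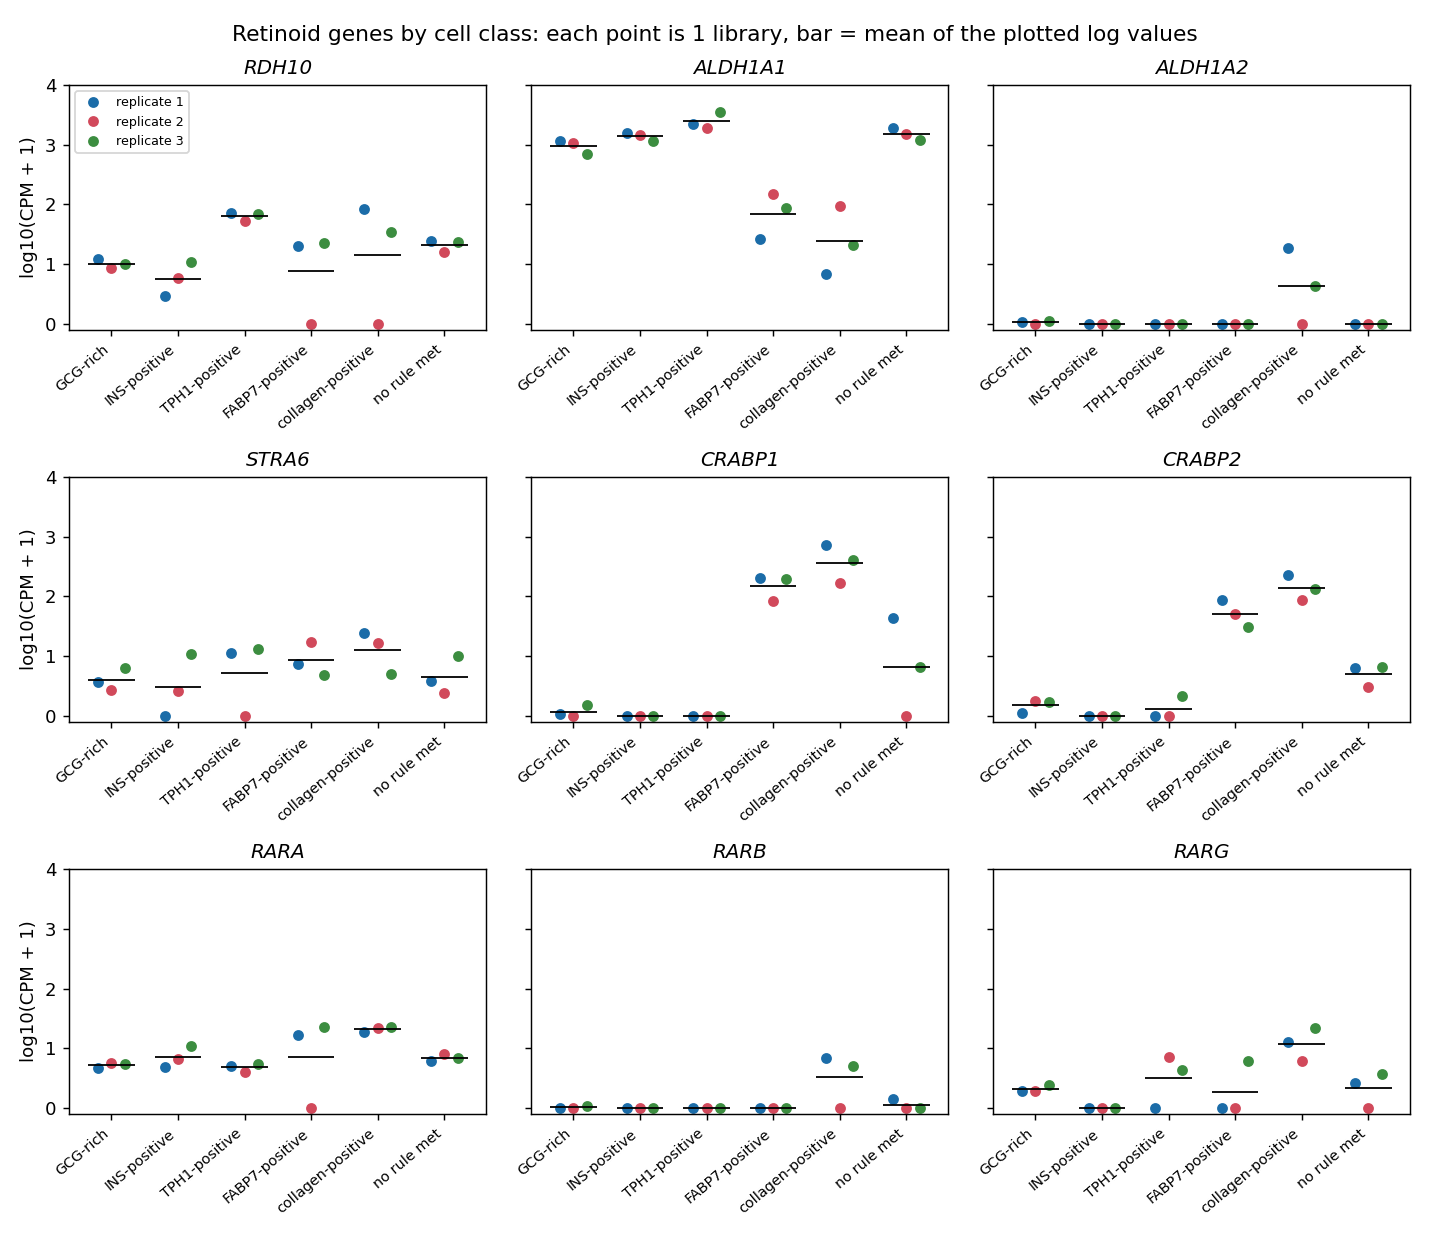
Level of each of the 9 genes by cell class, as log10(CPM + 1), with 1 point per library and a bar at the mean of the plotted values. ALDH1A1 is high in the 3 endocrine classes and low in FABP7-positive and collagen-positive cells, and CRABP1 and CRABP2 show the opposite order. RDH10 has its highest mean in TPH1-positive cells, although its highest single point is the collagen-positive sum of replicate 1 (82.9 CPM).

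The level of ALDH1A1 did not follow the share of glucagon in a single direction. Cells outside the TPH1, FABP7 and collagen classes were split by the GCG share of their UMIs. Those with GCG under 1% held 2446, 1960 and 1645 ALDH1A1 CPM (2017 ± 403, SD, n = 3; 284 cells in all), and those at 1% to 5% held 1365, 1063 and 885 CPM (1104 ± 243). At 5% to 10% and 10% to 20% the means were 947 ± 310 and 952 ± 187 CPM, and at 20% or more 1096 ± 211. In every library the cells with GCG under 1% held the highest level, although 1 cell of replicate 2 held 14.1% of the ALDH1A1 UMIs of that bin. Cells with 1 or 2 TPH1 UMIs stayed in this split. With GCG under 5%, these held 2933 ± 411 CPM against 1409 ± 408 CPM in cells without TPH1 (SD, n = 3), and their part was not tested. Leaving GCG out of the total moved the mean of the cells at 20% or more to 1441 ± 267 CPM and that of the cells under 1% to 2022 ± 405; this scaling was added after the data were seen. The cells with GCG under 1% still carried 8, 8 and 7 of 8 alpha markers at 20 CPM or more. Their 5 delta-cell markers, SST among them, summed to 5192, 27917 and 6211 CPM, against 1418, 2425 and 1277 CPM in GCG-rich cells, and their cycling markers to 378, 84.3 and 400.5 CPM. Other lists were higher too: duct or exocrine markers at 305, 813 and 555 CPM against 120, 126 and 127, neural or glial markers at 758, 573 and 886 CPM against 290, 220 and 366, and enterochromaffin markers at 642, 807 and 629 CPM against 382, 446 and 374. The part of these lists in the ALDH1A1 level was not tested.

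**Figure D2:**
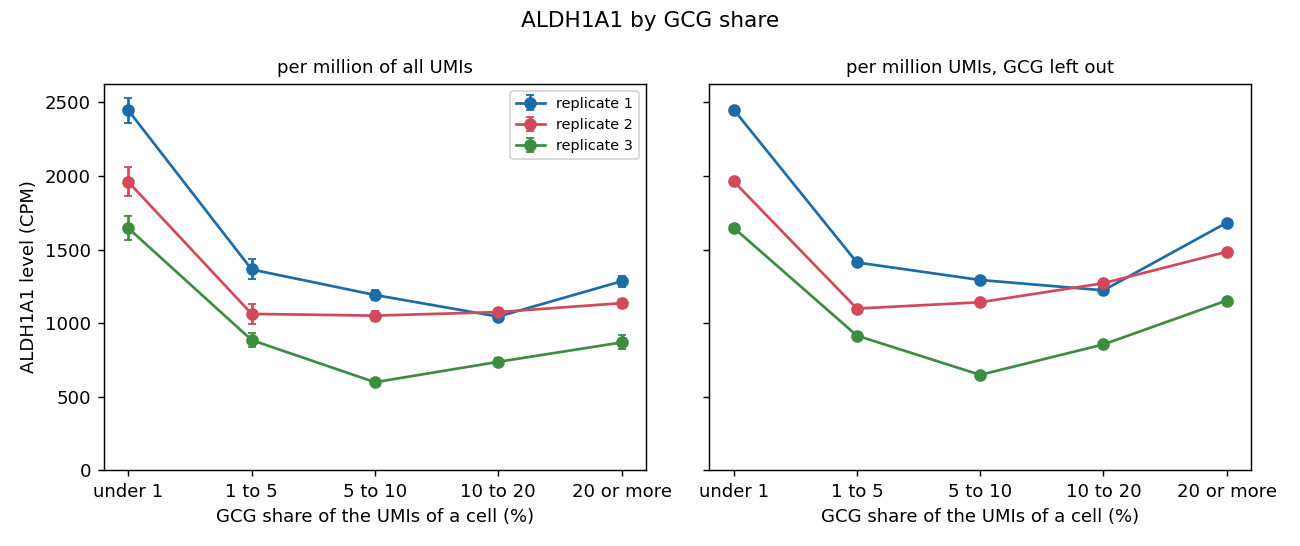
ALDH1A1 level by the GCG share of a cell's UMIs, per 1000000 of all UMIs with exact 95% Poisson intervals (left) and per 1000000 UMIs without GCG (right), with 1 line per library. All 3 libraries start highest under 1% GCG and are higher at 20% or more GCG than at 10% to 20%.

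RDH10, on chromosome 8 (GRCh38, chr8:73294612-73325281, plus strand), was the member that stood out in TPH1-positive cells. They held 71.6, 51.1 and 67.5 CPM (63.4 ± 10.8, SD, n = 3), from 35, 17 and 61 UMIs. GCG-rich cells held 11.2, 7.45 and 8.92 CPM (9.20 ± 1.91), and INS-positive cells 1.92, 4.84 and 9.75 CPM (5.50 ± 3.96) from 1, 6 and 1 UMIs. Every TPH1-positive sum was above every GCG-rich and INS-positive sum, while those last classes overlapped. At 5000 UMIs per cell, 21.5% ± 9.60 of TPH1-positive and 3.83% ± 0.742 of GCG-rich cells had an RDH10 UMI (SD, n = 3), and no TPH1-positive cell held more than 20% of its library's RDH10 UMIs. Collagen-positive cells were uneven, at 82.9, 0 and 33.7 CPM, since 1 cell of 10 held 50% of the UMIs in replicate 1 and none was seen among 11 cells in replicate 2, where 3 counts, the limit a count of 0 allows, would be 15.4 CPM. FABP7-positive cells held 18.9, 0 and 21.8 CPM.

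The gene overlaps RPL7, a ribosomal protein gene, and RDH10-AS1 on the other strand, and whether counting used strand is not given in the sources used here. RPL7 stood at 697 ± 94.9 CPM in TPH1-positive and 584 ± 59.5 CPM in GCG-rich cells, and at 1682 ± 213 CPM in collagen-positive cells. Like RDH10, RPL7 was higher in TPH1-positive cells (616, 674 and 801 CPM) than in GCG-rich cells (556, 544 and 652 CPM) of each library. The highest mean was in collagen-positive cells for RPL7 and in TPH1-positive cells for RDH10. The part of the overlap in the RDH10 counts was not tested. RDH10-AS1 had no UMI in TPH1-positive cells.

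Among cells with GCG under 5% and outside the FABP7 and collagen classes, RDH10 was already higher in cells with 1 or 2 TPH1 UMIs, which the rule leaves out of the TPH1 class. Cells without a TPH1 UMI held 20.2, 9.61 and 19.6 RDH10 CPM. Cells with 1 or 2 TPH1 UMIs held 49.0, 45.8 and 54.3 CPM (19, 8 and 25 cells), those with 3 to 9 held 111, 83.0 and 60.6 CPM, and those with 10 or more 58.3, 66.5 and 75.0 CPM. All 9 values with a TPH1 UMI were above all 3 without; beyond 3 UMIs the libraries ran in different directions. ALDH1A1 showed a like step, from 1409 ± 408 CPM without TPH1 to 2933 ± 411 CPM at 1 or 2 UMIs (SD, n = 3), but at 10 or more UMIs it was 1712 CPM in replicate 1, below that library's 1854 CPM without TPH1. Single cells weighed in the small bins: 1 held 53.8% of the 13 RDH10 UMIs at 10 or more TPH1 UMIs in replicate 1, and in replicate 2 1 cell held 49.3% of the ALDH1A1 UMIs at 1 or 2 TPH1 UMIs and 1 held 62.5% at 3 to 9. Cells were not matched on depth in this split. Median UMIs per cell ran from 10443 to 12780 in replicate 1 and from 7910.5 to 8403 in replicate 3. In replicate 2 the cells without TPH1 were shallower, at 7918 against 17050.5, 12443 and 14389 in the bins with TPH1, and the part of depth was not tested.

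**Figure D3:**
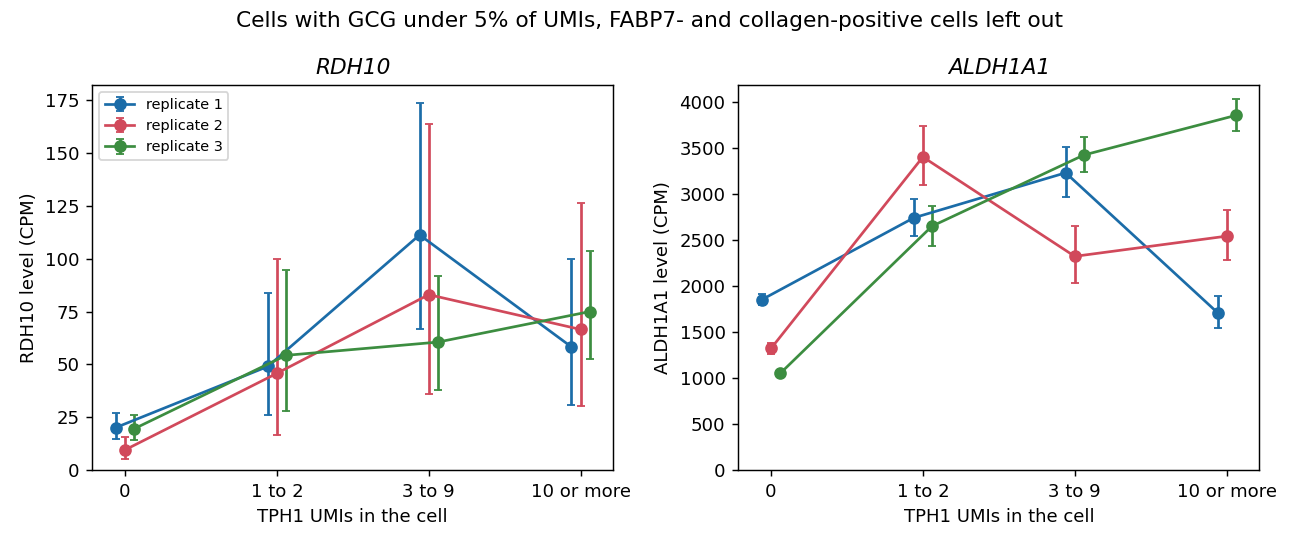
Levels of RDH10 (left) and ALDH1A1 (right) in cells with GCG under 5%, split by the number of TPH1 UMIs in the cell, with 1 line per library and exact 95% Poisson intervals. RDH10 rises from 9.61 to 20.2 CPM without TPH1 to 45.8 CPM or more in every other bin, while ALDH1A1 falls back in replicate 1 at 10 or more TPH1 UMIs.

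ALDH1A2, the retinaldehyde dehydrogenase of mesoderm (GRCh38, chr15:57953424-58497866, minus strand), was close to absent, with 9 UMIs over all kept cells. Collagen-positive cells held 3, 0 and 4 of them, or 17.8, 0 and 3.21 CPM, and GCG-rich cells 1, 0 and 1. The 3 UMIs of replicate 1 came from 1 cell. It overlaps LIPC-AS1 on its own strand and LIPC, AQP9 and AC025431.1 on the other. It was under the count filter of every comparison below.

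STRA6 (GRCh38, chr15:74179466-74212267, minus strand) was thinly counted in every class, with 191 UMIs over all kept cells. GCG-rich cells held 2.74, 1.69 and 5.26 CPM (3.23 ± 1.83, SD, n = 3), TPH1-positive cells 10.2, 0 and 12.2 CPM, and collagen-positive cells 23.7, 15.4 and 4.01 CPM. The collagen-positive value of replicate 1 came from 4 UMIs of 1 cell. FABP7-positive cells held 6.31, 16.5 and 3.85 CPM from 2, 2 and 3 UMIs. The classes overlapped, and STRA6 passed the test in none of the comparisons below that tested it.

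CRABP1 (GRCh38, chr15:78340324-78348230, plus strand) was high in collagen-positive and FABP7-positive cells and nearly absent from the 3 endocrine classes. Collagen-positive cells held 716, 169 and 411 CPM (432 ± 274, SD, n = 3) and FABP7-positive cells 205, 82.5 and 198 CPM (162 ± 68.8). GCG-rich cells held 1, 0 and 5 UMIs, which is 0.065, 0 and 0.50 CPM, and neither TPH1-positive nor INS-positive cells held any. For TPH1-positive cells, 3 counts would be 6.14, 9.03 and 3.32 CPM. A few cells held much of the signal: 1 collagen-positive cell held 50.4% of the CRABP1 UMIs of its class in replicate 1 and 72.7% in replicate 2, but 10.9% in replicate 3, where 54 of 107 cells had a CRABP1 UMI. Without that cell the collagen-positive levels were 394, 52.4 and 370 CPM. In FABP7-positive cells the top cell held 44.6%, 70.0% and 33.8% of the CRABP1 UMIs, and without it the levels were 118, 34.5 and 137 CPM. In cells that met no rule, 102 of the 106 CRABP1 UMIs of replicate 1 lay in 1 cell.

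CRABP2 (GRCh38, chr1:156699606-156705816, minus strand) had the same order of classes. Collagen-positive cells held 231, 87.0 and 132 CPM (150 ± 73.6, SD, n = 3), FABP7-positive cells 85.2, 49.5 and 29.5 CPM (54.7 ± 28.2) and GCG-rich cells 0.13, 0.74 and 0.69 CPM. TPH1-positive cells held 0, 0 and 1 UMI. Within the 107 collagen-positive cells of replicate 3, 37 cells had both CRABP1 and CRABP2, 17 only CRABP1, 15 only CRABP2 and 38 neither. After thinning 99 of these cells to 5000 UMIs the counts were 27, 21, 10 and 41; no UMI at this depth does not show that a cell lacks a gene. In FABP7-positive cells of that library 6 of 53 had both and 33 neither.

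The receptor RARA (GRCh38, chr17:40309192-40357643, plus strand) was detected in every class at low levels. GCG-rich cells held 3.59, 4.70 and 4.46 CPM (4.25 ± 0.584, SD, n = 3), TPH1-positive cells 4.09, 3.01 and 4.43 CPM and INS-positive cells 3.83, 5.65 and 9.75 CPM, and these 3 classes overlapped. Collagen-positive cells held 17.8, 20.5 and 21.7 CPM (19.96 ± 2.00), above every endocrine sum, from 3, 4 and 27 UMIs. FABP7-positive cells held 15.8, 0 and 21.8 CPM, the 0 coming from 4 cells. RARG (GRCh38, chr12:53210567-53232980, minus strand) stood at 0.91, 0.90 and 1.39 CPM in GCG-rich and at 11.8, 5.12 and 20.8 CPM in collagen-positive cells, where the first values rest on 2 UMIs and 1 UMI. It was at 0 in INS-positive cells and in the FABP7-positive cells of replicates 1 and 2.

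RARB (GRCh38, chr3:25174332-25597932, plus strand), with the spaced pair of hexamers printed above in 1 of its 4 promoter windows, gave 8 UMIs over all kept cells. Collagen-positive cells held 1, 0 and 5 of them in 6 cells, or 5.92, 0 and 4.01 CPM. GCG-rich cells held 1, and TPH1-positive, INS-positive and FABP7-positive cells none, so RARB was not tested. RARA overlaps RARA-AS1, RARB overlaps TOP2B and STRA6 overlaps CCDC33, each on the other strand.

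The first comparison asked which members differed between TPH1-positive and GCG-rich cells of the same library. RDH10 and ALDH1A1 rose in TPH1-positive cells. RDH10 was higher by 2.44 ± 0.25 (log2, SE; edgeR quasi-likelihood adjusted p = 5.4e-15) and ALDH1A1 by 1.25 ± 0.14 (edgeR adjusted p = 8.6e-14), each in 2 of 2 libraries. STRA6 (0.97 ± 0.53, edgeR adjusted p = 0.243) and RARA (-0.27 ± 0.67, edgeR adjusted p = 0.874) did not pass, and the other 5 members were under the count filter. These 2 of 4 tested members stand beside 16.7% of 13059 genes called (7.73% higher, 8.94% lower); the median fold of the 4 members was 1.11 on the log2 scale against -0.02 over all genes. Sums of at least 20 cells per class left replicates 1 and 3. With at least 10 cells, a minimum added after the data were seen, all 3 libraries entered: RDH10 was higher by 2.51 ± 0.23 (edgeR adjusted p = 4.9e-07) and ALDH1A1 by 1.02 ± 0.20 (edgeR adjusted p = 0.00136), beside 14.2% of 12850 genes called (6.53% higher, 7.7% lower). Without replicate 3 the ALDH1A1 difference was 0.54 (edgeR adjusted p = 0.00913) and that of RDH10 2.47. The ALDH1A1 call did not hold under DESeq2's Wald test on replicates 1 and 3 (adjusted p = 0.423), and its plain CPM ratio was 1.06 in one library and 2.38 in the other on the log2 scale. The median gene had a plain CPM ratio of 0.44 (log2) in favour of TPH1-positive cells, and the fitted folds, scaled by TMM, are to be read relative to that shift.

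Of 54 other retinoid genes, 30 were tested in this comparison; 6 rose and 2 fell. Oxidation and reduction enzymes gave 3 of 7 higher: RDH12 by 1.05 ± 0.20, DHRS3, a retinaldehyde reductase, by 0.89 ± 0.30, and ADH5 by 0.49 ± 0.13 (log2, SE). Among carriers, TTR, which carries retinol-binding protein in blood and is an abundant alpha-cell transcript, fell by 2.69 and FABP5, a fatty acid-binding protein gene, by 0.77. Of 9 tested known retinoic acid targets, 2 rose, the homeobox gene MEIS2 (2.29 ± 0.27) by more, and none of 9 tested partners and co-regulators passed by edgeR. ADH5 falls outside the rule for named genes; its value was known when it was picked. With 3 libraries 5 of 29 genes rose and 2 fell, ADH5 did not pass (by edgeR) and RDH12 was higher in 2 of 3 libraries. The median fold of the 30 genes was 0.34 on the log2 scale. Neural or glial markers, STMN2 among the highest, summed to 962 to 1140 CPM in TPH1-positive and 220 to 366 CPM in GCG-rich cells; their part in these changes was not tested.

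The second comparison set GCG-rich cells with INS against GCG-rich cells without it, in replicates 1 and 2 (23 and 46 cells with INS). ALDH1A1 was higher by 0.40 ± 0.09 (log2, SE; edgeR adjusted p = 0.00106) in 2 of 2 libraries, at 1379 ± 96.1 CPM against 1099 ± 49.5 CPM (SD, n = 2 libraries). RDH10 (-0.82 ± 0.56), RARA (0.59 ± 0.63) and STRA6 (-0.52 ± 1.20) did not pass by edgeR, with adjusted p from 0.813 to 0.981. That is 1 of 4 tested members beside 1.18% of 13228 genes called (0.847% higher, 0.333% lower). None of 31 tested other retinoid genes passed in edgeR, where 1025 of all genes had an unadjusted p under 0.05. The ALDH1A1 call was lost without the library block (edgeR adjusted p = 0.339, same fold). The delta markers, SST first, summed to 5637 and 9369 CPM in all INS-positive against 1418 and 2425 CPM in all GCG-rich cells of these libraries. These are whole classes and not the fitted sides: 23 of 26 and 46 of 59 INS-positive cells were GCG-rich and count in both. The part of the delta markers was not tested.

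The next comparison set FABP7-positive against GCG-rich cells. It could not be fitted at 20 cells per class; at 10, chosen after the data were seen, replicates 1 and 3 entered with 19 and 52 FABP7-positive cells. CRABP1 and CRABP2 rose, by 9.25 ± 0.45 and 6.87 ± 0.72 (log2, SE; edgeR adjusted p = 1.7e-27 and 1.7e-12), from 219 and 49 UMIs against 6 and 8. ALDH1A1 fell by 4.63 ± 0.40 (edgeR adjusted p = 1.9e-15), and RARA rose by 1.91 ± 0.63 (edgeR adjusted p = 0.012). RDH10 (0.76 ± 0.51) and STRA6 (-0.15 ± 0.91) did not pass, at edgeR adjusted p = 0.240 and 0.920. So 4 of 6 tested members were called, beside 39.9% of 13277 genes, 18.8% higher and 21.1% lower. CRABP1 and CRABP2 passed the count filter only through the FABP7-positive sums, so hardly any call but higher was open to them. Their calls add no separate support to that count, and the share over all genes holds such genes too. The RARA call was lost under DESeq2 (adjusted p = 0.137) and under stricter class thresholds (edgeR adjusted p = 0.0852).

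Of the other retinoid genes 31 were tested here, with 8 higher and 8 lower. CYP26A1 and HOXA3 passed the count filter only through the FABP7-positive sums, so hardly any call but higher was open to them. DHRS3 and RDH12 passed it through the GCG-rich sums. The breakdown enzyme CYP26A1 had 7 and 14 UMIs in the FABP7-positive cells of replicates 1 and 3 and none in GCG-rich cells, which is at least 168-fold higher when 3 counts are allowed over the GCG-rich sums. The 14 UMIs lay in 1 cell and the 7 in 2 cells. CYP26C1 had 9 UMIs in 2 FABP7-positive cells of replicate 1 and CYP26B1 8 UMIs in FABP7-positive cells of both libraries; neither passed the count filter, and both were picked with their values known. HOXA3, a known target and a Hox gene of the posterior hindbrain, was at least 336-fold higher (42 UMIs against 0), and the orphan receptor gene NR2F1 rose by 6.47 ± 0.34. The retinaldehyde-reducing enzymes DHRS3 and RDH12 fell, with 1 UMI each against 333 and 740, which is a ratio of 13.9 (exact 95% interval 2.47 to 550) and of 30.8 (5.52 to 1220). TTR fell by 6.32 ± 0.72. Of 9 partners and co-regulators tested, RXRA, NCOA1, NCOA2 and NRIP1 fell, by 1.24 to 1.70, and the other 5 did not pass by edgeR; these 4 were named with their values known. Of 10 known targets tested, 6 rose and 1 fell.

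A further comparison set collagen-positive against GCG-rich cells in all 3 libraries, with 10, 11 and 106 collagen-positive cells, also at the added minimum of 10 cells. CRABP1 rose by 11.05 ± 0.43 and CRABP2 by 7.76 ± 0.48 (log2, SE; edgeR adjusted p = 3.1e-11 and 5.2e-09), each in 3 of 3 libraries, and ALDH1A1 fell by 5.10 ± 0.34 (edgeR adjusted p = 1.1e-08). The receptors RARG (3.37 ± 0.66, edgeR adjusted p = 0.000738) and RARA (2.00 ± 0.50, edgeR adjusted p = 0.00499) rose in 3 of 3 libraries, and RDH10 rose by 1.66 ± 0.49 (edgeR adjusted p = 0.0129) in 2 of 3. STRA6 (1.28 ± 0.79) did not pass, at edgeR adjusted p = 0.211. These 6 of 7 tested members stand beside 41.4% of 13107 genes called, 18.5% higher and 22.9% lower. CRABP1, CRABP2 and RARG passed the count filter only through the collagen-positive sums, so hardly any call but higher was open to them. Replicate 3 carried most of these cells: without it CRABP1, CRABP2 and ALDH1A1 kept their calls, while edgeR adjusted p rose to 0.189 for RARG, 0.180 for RARA and 0.228 for RDH10, and RDH10 also failed under DESeq2 (adjusted p = 0.214).

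Of 29 other retinoid genes tested here, 7 rose and 7 fell. Among 9 known targets 5 rose, led by NR2F1 (4.72 ± 0.29), RARRES2 (3.86 ± 0.55), MEIS2 (3.84 ± 0.29) and NR2F2 (3.03 ± 0.21), and TSHZ1, named with its value known, fell by 1.43. RDH12 had 1 UMI against 1218, a ratio of 44.1 (exact 95% interval 7.90 to 1743), and TTR fell by 7.26 ± 0.11. CYP26A1 and CYP26C1 had no UMI in collagen-positive cells. The median fold of the 29 genes was -0.18 on the log2 scale and that over all genes -0.24. All comparisons so far use GCG-rich cells of the same libraries, so their folds share those sums.

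**Figure D4:**
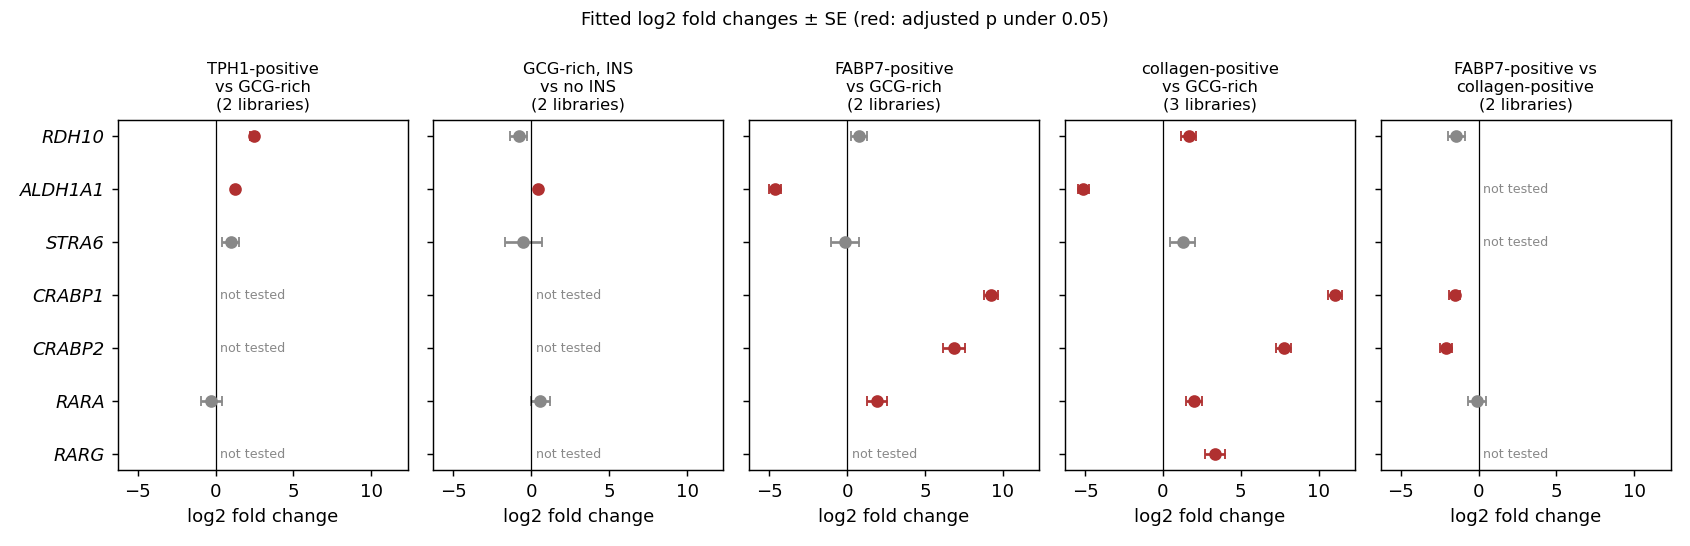
Fitted log2 fold changes with SE of the 7 members that could be tested, by comparison, with positive values for a higher level in the class named first. Points in red passed an adjusted p of 0.05 by edgeR; ALDH1A1 lies at 1.25 in TPH1-positive and at -5.10 in collagen-positive cells against GCG-rich cells, and CRABP1 at 9.25 in FABP7-positive and 11.05 in collagen-positive cells.

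FABP7-positive and collagen-positive cells were then compared directly, leaving out cells that met both rules, in replicates 1 and 3 (19 and 40 against 10 and 94 cells). CRABP2 was lower in FABP7-positive cells, with a fold of -2.08 ± 0.37 (log2, SE; edgeR adjusted p = 0.0061), and so was CRABP1, at -1.54 ± 0.36 (edgeR adjusted p = 0.0292), in 2 of 2 libraries each. RDH10 (-1.43 ± 0.54, edgeR adjusted p = 0.182) and RARA (-0.10 ± 0.60, edgeR adjusted p = 0.970) did not pass. These 2 of 4 tested members stand beside 5.57% of 5836 genes called (1.73% higher, 3.84% lower). Both calls were lost under DESeq2 (adjusted p = 0.156 for CRABP1 and 0.0985 for CRABP2) and after thinning (edgeR adjusted p = 0.0640 and 0.205). Of 18 other retinoid genes tested, NR2F1 (2.15 ± 0.35) and HOXA3 (2.65 ± 0.70) were higher in FABP7-positive cells, with edgeR adjusted p of 0.00361 and 0.0485. HOXA3 may have passed the count filter only through the FABP7-positive sums, where hardly any call but higher would be open to it. Its call, close to the threshold of 0.05, adds no separate support.

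**Figure D5:**
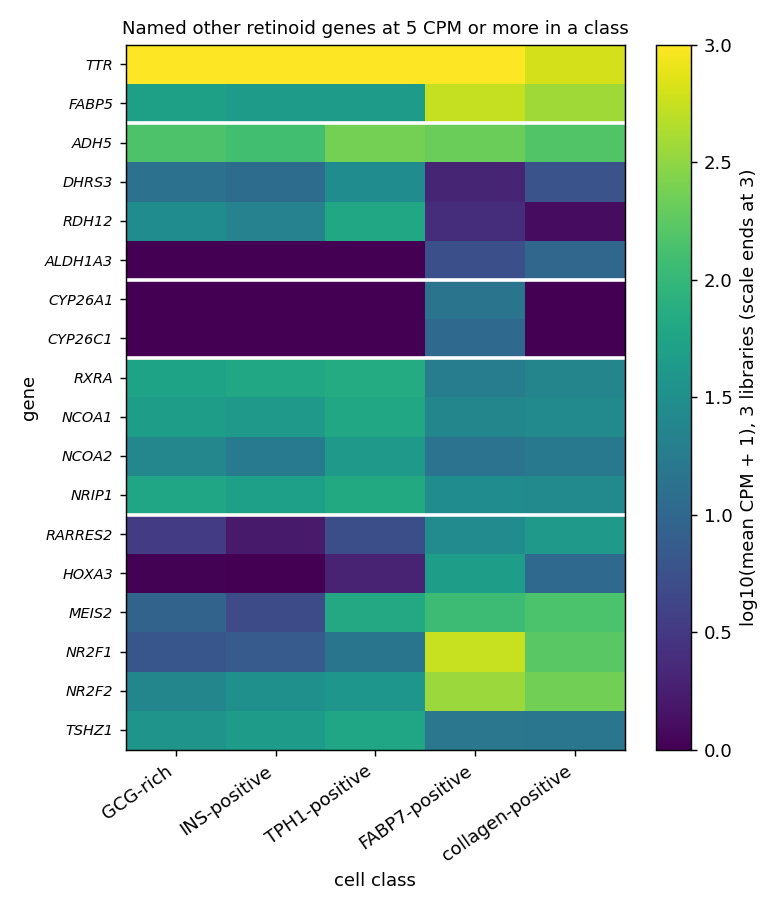
Mean level over 3 libraries, as log10(CPM + 1), of the 18 other retinoid genes named in the text that reach 5 CPM in at least 1 class, with white lines between carriers, oxidation and reduction, breakdown, partners and co-regulators, and known targets. NR2F1, NR2F2 and MEIS2 are high in FABP7-positive and collagen-positive cells, RDH12 and DHRS3 are higher in the endocrine classes, and CYP26A1 and CYP26C1 appear only in the FABP7-positive column.

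Across the 15 sums of 5 classes and 3 libraries, Pearson correlations of log2(CPM + 10) described which members moved alike; the sums share cells, depth and composition, so no p is given. CRABP1 and CRABP2 had r = 0.98, ALDH1A1 had r = -0.98 with CRABP1 and -0.96 with CRABP2, and RDH10 stayed between -0.05 and 0.20 with every other member. Among 6270 genes, the nearest to ALDH1A1 were GCNT1 and EML2 (r = 0.974 for both), and to RDH10 TBC1D1, KDM5B and SERINC2 (0.878 to 0.911). The nearest to CRABP1 were RPS19, SPARC and NACA (0.971 to 0.973), and to CRABP2 RPS15A, NACA and RPL10A (0.977 to 0.981). For RARA they were PGM3, PMEPA1 and PCDH18 (0.871 to 0.892) and for STRA6 APOE, XPC and ARMCX2 (0.804 to 0.833). ALDH1A2, RARB and RARG had fewer than 100 UMIs and were left out.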

How the data were processed

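Single-cell RNA was captured with 10x Genomics 3' v3 chemistry, per the labels' protocols. The authors deposited whole-number UMI counts for each barcode, not normalized; the submitters' processing notes name Cell Ranger 4.0.0 and GRCh38. The counting annotation and strand setting: not given in the sources used here. A 3' count does not cover whole transcripts, so isoforms cannot be told apart.

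Cells were kept and classed as the report states. Counts were summed per library and class, and each comparison was fitted with edgeR 4.0.16 (quasi-likelihood test, TMM, filterByExpr, library as block, two-sided) in R 4.3.3, with Benjamini-Hochberg adjustment over all genes tested at 0.05. Cells that met both rules of a comparison were left out of both sides (in the INS comparison both sides were GCG-rich). A class needed 20 cells in a library; the minimum of 10 was added after the data were seen. The SE is the fold divided by the square root of F. Both sums of a library come from the same run, which is the pairing. Intervals for single sums are exact 95% Poisson intervals and, like the limit of 3 counts for a 0, cover counting error only. Scrublet (scanpy 1.11.5) called 47 of 3653 cells doublets; they were kept, and removed in an alternative. The code was tested on simulated data. The 9 members, the 54 other genes and the markers were chosen with earlier results of these data known. Named genes were all members, at most 6 other retinoid genes per comparison by the largest fold with 1 sign in all libraries, and the 3 genes most correlated with each member at 100 or more UMIs and 20 CPM or more. Alternatives were DESeq2 1.42.0 (size factors and Wald test), no count filter, no block, other cell filters (30% mitochondrial, 2000 genes), stricter classes (GCG 10%, INS 2%, 10 UMIs), cells of 1 class only, thinning, and leaving out each library. Values of some genes that these rules name are not reported here. Other software was Python 3.11.15, numpy 2.4.6, scipy 1.17.1 and pandas 2.3.3.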

Additional observations from a re-analysis of the deposited data

How the results depend on the processing

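Over all fits, 309 member folds kept their direction and side of the threshold, 13 lost their call and 7 changed sign. The sign changes were in folds that had not passed: RARA in TPH1-positive cells at a 30% mitochondrial limit (0.0039 with either cell minimum), STRA6 there after thinning (-0.30), STRA6 in INS cells at 30% (0.11), RDH10 in INS cells after thinning (0.75), and in FABP7-positive cells STRA6 with cells of 1 class only (0.17) and RDH10 with stricter thresholds (-0.58). Members called were 1 in TPH1-positive cells by DESeq2, 0 in INS cells without the library block, 3 to 6 in collagen-positive cells when a library was left out, and, for FABP7-positive against collagen-positive cells, 0 by DESeq2, 0 after thinning and 1 without the block. DESeq2's Wald test called 734 genes in place of 2178 for TPH1-positive cells, 1120 in place of 1829 with at least 10 cells, 31 in place of 156 for INS, 2533 in place of 5299 for FABP7, and 96 in place of 325 for FABP7 against collagen. Without the replicate block 1314 genes were called for TPH1-positive cells and 13 for INS. Thinning gave 1381 (TPH1), 22 (INS), 2779 (FABP7), 3597 in place of 5429 (collagen) and 67 (FABP7 against collagen). Stricter thresholds gave 1391 for TPH1, the 30% limit 2747 with at least 10 cells, no count filter 559 for FABP7 against collagen, and leaving out a library 2771 to 5319 for collagen. The cause of these shifts was not tested, beyond the fewer UMIs that thinning leaves. Blocking by library changed no member call other than ALDH1A1 in INS cells and CRABP2 between FABP7-positive and collagen-positive cells (edgeR adjusted p = 0.0539 without it). Leaving out replicate 1 or 3 where only those entered, replicate 1 or 2 for INS, and stricter thresholds for INS and for FABP7 against collagen left too few libraries to fit. At 20 cells per class neither FABP7-positive nor collagen-positive cells could be fitted. Of levels 2 moved by over 1 SD and 111 did not; of shares of cells, 20 moved after thinning and 34 values did not. Depth limits ALDH1A2, RARB and RARG, with 9, 8 and 92 UMIs.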

Other observations

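Cells that met no class rule held 1906, 1479 and 1185 ALDH1A1 CPM and 23.7, 14.6 and 22.7 RDH10 CPM in replicates 1, 2 and 3, between the GCG-rich and the TPH1-positive RDH10 levels. RDH10 was seen in 44, 14 and 45 of these cells, and 43, 14 and 41 of those also had an ALDH1A1 UMI. Most cells that met no rule had one: 196 of 241, 114 of 124 and 249 of 298 (81.3%, 91.9% and 83.6%). Joint detection is therefore to be read beside these shares. The paralog ALDH1A3, which is no member, was at 0 in GCG-rich, INS-positive and TPH1-positive cells of all 3 libraries and had 3, 0 and 11 UMIs in collagen-positive and 3, 0 and 3 in FABP7-positive cells. It was picked with its values known.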
